A study of Mus musculus with 12 samples.

Results

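The autophagy machinery and its cargo receptors were followed in mouse liver as 45 genes, out of 54532 gene IDs in the deposited table. They were taken by symbol, as core autophagy genes and known receptors, and not by a rule on any measured value. Earlier results of these data were known when they were chosen. All 45 were found, and all passed the filter for testing, at least 1 FPKM (sequenced fragments scaled by exon length and by library depth) in at least 3 of the 12 libraries. The series title names autophagy, a high-fat diet and colitis as its subject. RNA was sequenced from livers of wild-type mice of the inbred strain C57BL/6J, in 4 groups of 3 libraries. CD was a diet that the labels do not spell out, HFD was a high-fat diet, and CD_DSS and HFD_DSS were the same diets with 2% dextran sulfate sodium (DSS), a polymer that damages the colon epithelium and is a standard way to cause colitis in mice. The labels used here state no age, sex or duration of diet and DSS. Nor do they say that the 3 libraries of a group are 3 animals, so a p-value covers only the scatter of these libraries, and that scatter may be technical.

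Autophagy delivers cytoplasm, protein aggregates and organelles to the lysosome. A kinase complex around ULK1 or ULK2 starts it, a lipid kinase complex with Beclin 1 then marks the membrane from which the autophagosome grows, and conjugation enzymes attach proteins of the ATG8 family (LC3 and GABARAP) to that membrane. Receptors bind both the cargo and the ATG8 proteins, and the closed autophagosome fuses with lysosomes. In liver, the pathway is known for turning over organelles and stores during fasting. Much of its control acts on proteins, so a transcript level is not a measure of autophagic flux, and no protein or flux was measured in these libraries.

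Depth, recovered from the steps between low FPKM values, was about 23400000 to 29400000 fragments per library. On the first principal component of all tested genes (43.3% of the variance), the libraries HFD 1, CD_DSS 1 and HFD_DSS 2 lay between the other untreated and the other DSS libraries, and members whose call changes without these 3 libraries are named. Being picked for lying between the groups, their removal by itself favours more DSS calls. For DSS averaged over both diets, 3359 of 10611 genes were called without them and 2157 of 10806 with all libraries. Calls gained in this way are no independent support. Saa1, an acute phase gene of the hepatocyte, went against the labels in 2 of these 3 libraries: it had 579 FPKM in HFD 1, against 14.976 to 49.2 in the other 5 untreated libraries, and 9.14 FPKM in CD_DSS 1, against 190.8 (HFD_DSS 2) to 2670.4 in the other 5 DSS libraries. Socs3, an inflammatory feedback gene chosen after its values were seen, followed the labels, with 0.939 to 4.02 FPKM in the untreated libraries, HFD 1 the highest, and 7.67 to 26.7 FPKM in the DSS libraries, CD_DSS 1 the lowest. Summed over 14 acute phase genes, Saa1 and Socs3 among them, HFD 1 had 15450 FPKM, against 6886 to 8643 in the other untreated libraries. CD_DSS 1 had 10175 FPKM, against 15550 (HFD_DSS 2) to 38372 in the other DSS libraries. Whether a library is mislabelled cannot be settled from these values. The tissue is bulk liver: summed hepatocyte markers (8 genes, Alb and Hnf4a among them) had 27945 to 52344 FPKM per library, against 199 to 422 for 12 Kupffer cell and macrophage markers and 0.597 to 1.56 for 4 B cell markers. In such samples, fewer cells of a type and less RNA per cell cannot be told apart.

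The machinery was expressed at moderate levels that varied little. Mean FPKM over the 12 libraries ran from 1.78 (Atg10) to 137.7 (Sqstm1), with 22 genes above 10 FPKM and 13 below 5. The length in FPKM is that of all annotated exons of a gene, from 1181 bases (Map1lc3a) to 14690 (Rb1cc1). The order of genes by FPKM therefore depends on the annotation as well as on the fragments. The median gene had 9.44 FPKM, against 4.79 over all 10806 genes tested. The cargo receptor Sqstm1 (p62) and the ATG8 family genes Gabarapl1 (120.4 FPKM) and Gabarap (96.0 FPKM) had the highest FPKM. The nucleation genes had low FPKM as a group, from 2.63 (Pik3r4) to 6.37 (Becn1). Exon length enters here too: Becn1 had 975 to 1393 recovered fragments per library over 7065 exon bases. Atg5 had 965 to 1459 over 2352 exon bases. The highest library exceeded the lowest by a median factor of 1.43, from 1.12 for Wipi2, which reads the lipid mark of the growing membrane, to 2.86 for Retreg1, the endoplasmic reticulum receptor also called FAM134B. Only 4 of the 45 genes (8.89%) varied more than 2-fold, against 32.3% of all tested genes, and 28 (62.2%) stayed within 1.5-fold, against 31.5%. The part of their higher median level in this narrower spread was not tested.

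**Figure D1:**
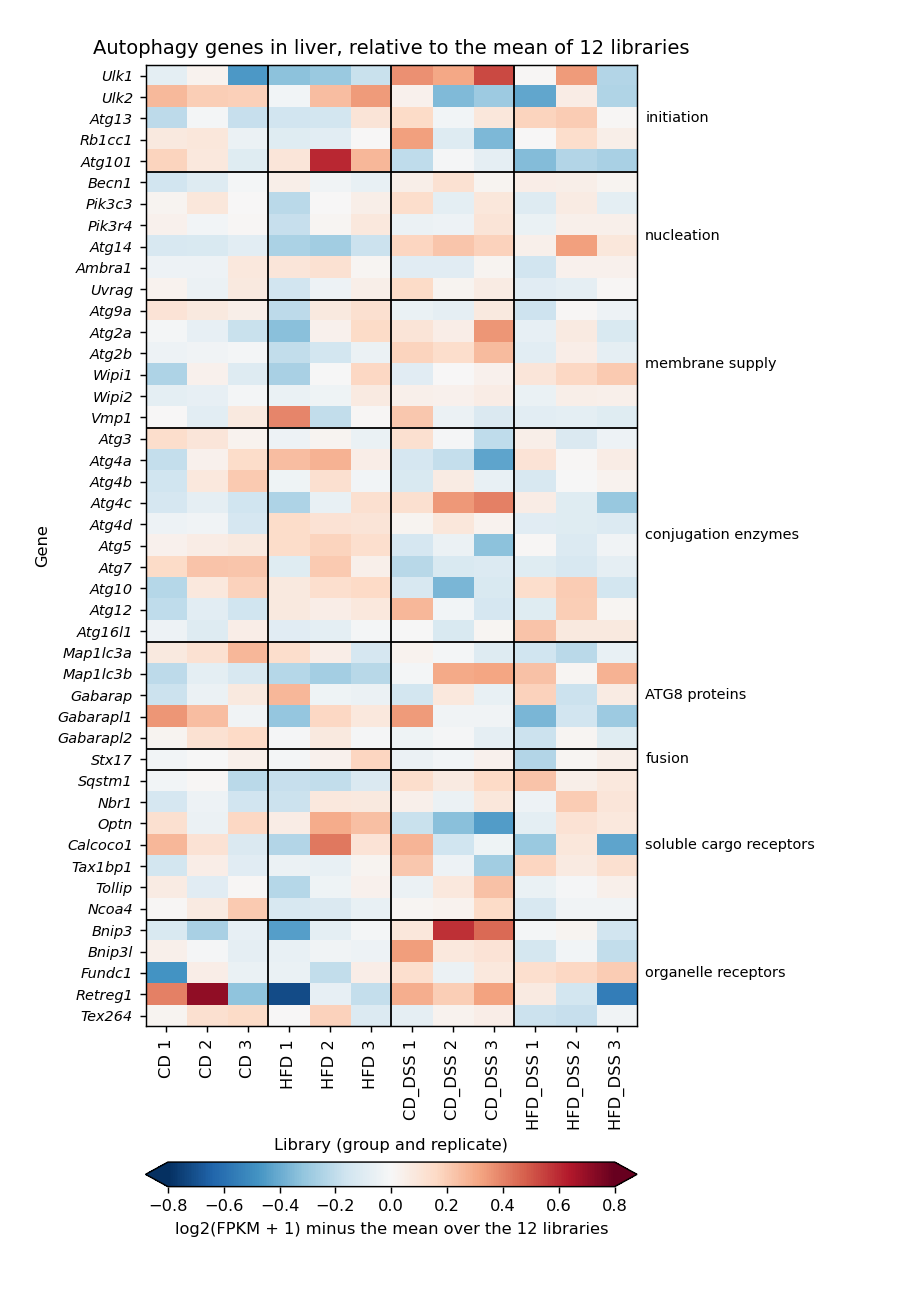
Level of the 45 genes in each of the 12 libraries, as log2(FPKM + 1) minus the mean over the libraries (colour), with genes in rows by step and libraries in columns by group. Ulk1, Atg14, Map1lc3b and Sqstm1 are redder in most DSS columns, Ulk2, Atg101 and Atg5 bluer, and Retreg1 shows the widest range, 2.86-fold.

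DSS moved 10 of the 45 genes when its effect was averaged over both diets, 5 up and 5 down, all by less than 1.5-fold. Ulk1, Atg14, Map1lc3b, Sqstm1 and Bnip3 rose, and Ulk2, Atg101, Atg5, Atg7 and Optn fell (limma on log2(FPKM + 1), Benjamini-Hochberg adjusted p under 0.05 over all 10806 genes). These were 22.2% of the members. Of all tested genes, 20% were called in this comparison (942 or 8.72% higher and 1215 or 11.2% lower), so the members were called about as often as any gene, and their median log2 fold change was 0.02, against −0.01 for all genes. With each library rescaled to TPM (FPKM rescaled to 1 common total), 5 members were called higher and 2 lower, and the split of all genes turned to 1016 higher and 728 lower. Leaving out HFD 2 or CD_DSS 3 left 6 calls each, down-weighting variable libraries gave 17, and leaving out the 3 libraries that stood apart gave 11, with Gabarapl1 and Calcoco1 added as lower and Atg5 lost. Over all genes, the calls in the same order were 1306 of 10742, 1356 of 10738, 4259 of 10806 and 3359 of 10611. Markers of other cells moved in the same comparison: 4 of the 10 tested Kupffer cell and macrophage markers rose (Adgre1, Marco, Timd4 and Cd5l). The whole list of 12 summed to 309 FPKM in HFD 1 and 199 to 253 in the other untreated libraries. With DSS it summed to 217 FPKM in CD_DSS 1, 270 in HFD_DSS 2 and 386 to 422 in the others. Summed neutrophil markers (9 genes) had 1.85 to 24.8 FPKM without DSS and 4.03 to 59.6 with it, none of the 4 tested was called, and Ly6g, Ngp, Camp and Mmp8 were listed at 0 in some libraries. Among 14 acute phase genes of the hepatocyte, 10 rose. The part of these shifts in the autophagy results was not tested.

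**Figure D2:**
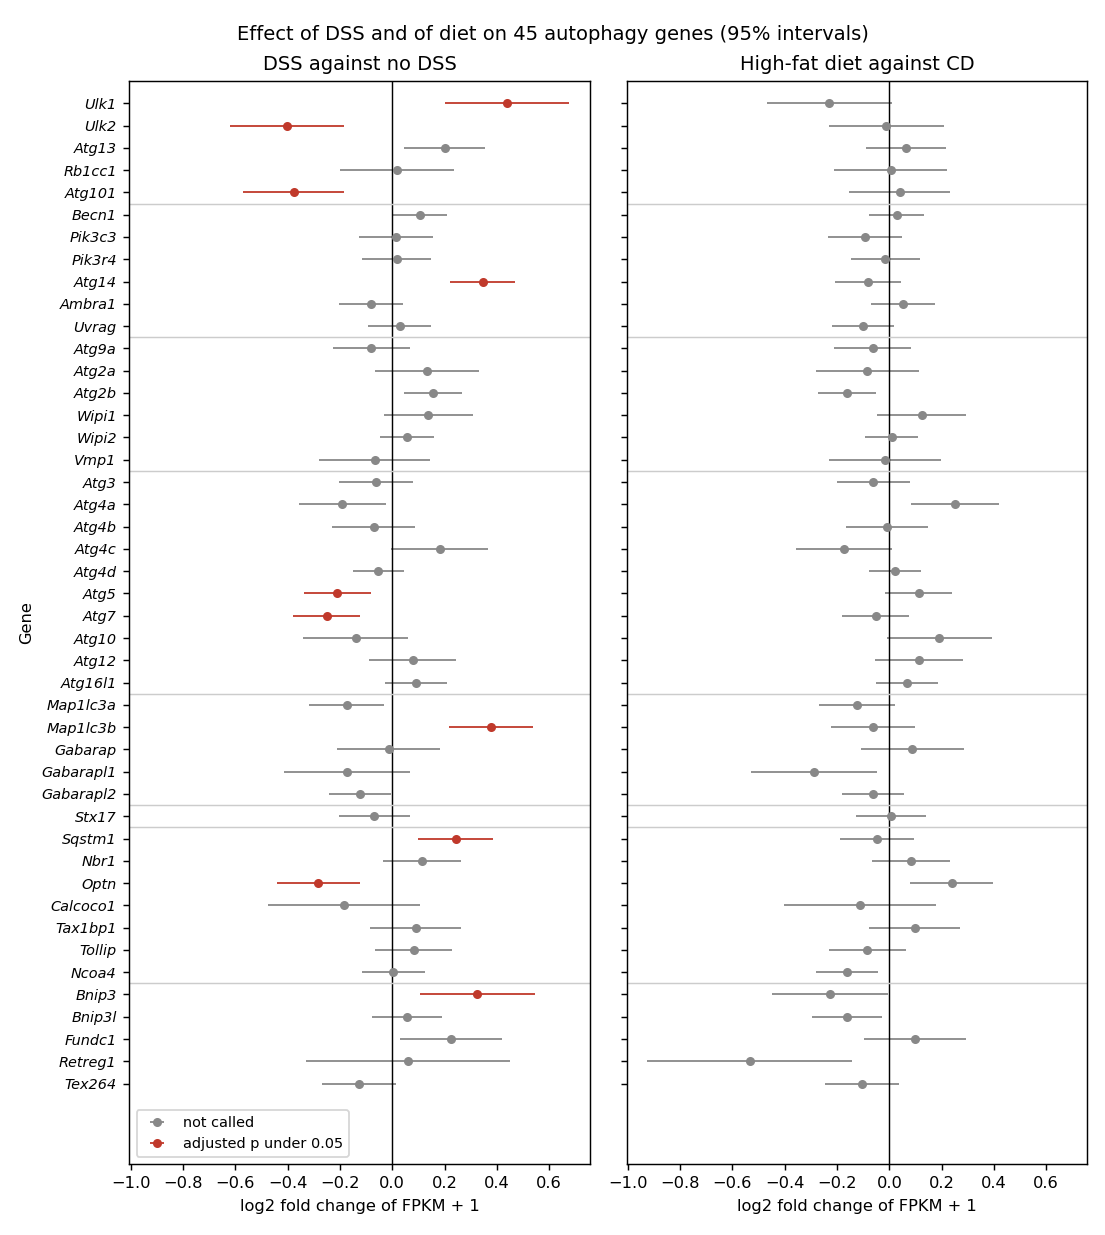
Effect of DSS averaged over both diets (left) and of high-fat diet averaged over both DSS states (right) on the 45 genes, as log2 fold change of FPKM + 1 (points) with 95% confidence intervals (lines), genes by step. Red marks the 10 genes with an adjusted p under 0.05, all in the DSS panel; none is red in the diet panel.

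At initiation, 3 of 5 genes changed, and both ULK kinases were among them with opposite signs. Ulk1 had 13.5, 14.6 and 10.1 FPKM in CD, 11.2, 11.5 and 12.5 in HFD, 18.7, 18.0 and 21.1 in CD_DSS, against 14.4, 18.4 and 12.0 in HFD_DSS. All CD_DSS libraries lay above all untreated ones, while HFD_DSS 1 and 3 lay within the untreated range. The averaged rise was 1.36-fold (log2 0.44, SE 0.11, limma adjusted p = 0.0176). Ulk2, the second kinase of the pair, had 21.1, 20.1 and 20.1 FPKM in CD, 17.2, 20.9 and 22.4 in HFD, 17.9, 13.5 and 14.1 in CD_DSS, against 12.9, 18.2 and 14.6 in HFD_DSS. It was lower in most DSS libraries, but CD_DSS 1 and HFD_DSS 2 overlapped HFD 1. It fell 1.32-fold (log2 −0.40, SE 0.10, limma adjusted p = 0.0178, and 0.0758 on the TPM scale, where the call is lost). The ratio of Ulk1 to Ulk2 within a library was a comparison chosen after their values were seen. It was 0.504 to 0.726 in the 6 untreated libraries and 0.824 to 1.497 in the 6 DSS libraries, with no overlap. Both genes were already called in opposite directions, so this separation adds no further evidence. Other ratios computed did overlap. Gabarapl1 to Gabarap was 0.830 to 1.80 without DSS and 0.848 to 1.75 with it. Bnip3 to Bnip3l was 1.27 to 1.69 without DSS and 1.39 to 2.37 with it.

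Atg101, which encodes a subunit that stabilises ATG13 in the kinase complex, had 21.0, 19.6 and 17.2 FPKM in CD, 19.7, 28.5 and 22.4 in HFD, 15.9, 18.3 and 17.5 in CD_DSS, against 14.3, 15.5 and 15.2 in HFD_DSS. HFD 2 was the highest library and the HFD_DSS libraries were the lowest of the 12, while CD_DSS overlapped CD. It fell 1.30-fold on average (log2 −0.38, SE 0.09, limma adjusted p = 0.0140). The ATG13 gene itself did not pass (log2 0.20, SE 0.07, adjusted p = 0.0665), and neither did Rb1cc1, which encodes the scaffold FIP200 (log2 0.02, SE 0.10, adjusted p = 0.924).

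At nucleation, 1 of 6 genes changed. Atg14, the subunit that directs the lipid kinase complex to autophagosome formation, had 4.63, 4.66 and 4.81 FPKM in CD, 4.17, 4.08 and 4.48 in HFD, 5.93, 6.18 and 6.00 in CD_DSS, against 5.33, 6.73 and 5.56 in HFD_DSS. Every DSS library lay above every untreated one. Its rise of 1.27-fold had the smallest adjusted p of the 45 genes (log2 0.35, SE 0.06, limma adjusted p = 0.00348). Becn1, which encodes Beclin 1, had 5.63, 5.84 and 6.28 FPKM in CD, 6.61, 6.21 and 6.06 in HFD, 6.61, 7.01 and 6.46 in CD_DSS, against 6.64, 6.61 and 6.48 in HFD_DSS. The untreated and DSS values overlapped through HFD 1 (log2 0.10, SE 0.05, limma adjusted p = 0.141). The lipid kinase Pik3c3, its partner Pik3r4, the Beclin 1 regulator Ambra1 and Uvrag, which replaces ATG14 in a second complex, had log2 differences from −0.08 (Ambra1) to 0.03 (Uvrag), none called.

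None of the 6 membrane supply genes passed. They encode the scramblases Atg9a and Vmp1, the lipid transfer proteins Atg2a and Atg2b, and the lipid readers Wipi1 and Wipi2, and their log2 differences lay between −0.08 (Atg9a) and 0.16 (Atg2b, limma adjusted p = 0.0506). Atg2b had 3.09, 3.14 and 3.17 FPKM in CD, 2.68, 2.80 and 3.08 in HFD, 3.76, 3.64 and 4.01 in CD_DSS, against 2.97, 3.37 and 3.01 in HFD_DSS. CD_DSS stood above the other 3 groups, while HFD_DSS lay within the untreated range except for HFD_DSS 2.

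Of the 10 conjugation enzymes, 2 fell and none rose. Atg5, part of the complex that places ATG8 proteins on the membrane, had 22.3, 22.7 and 23.0 FPKM in CD, 24.2, 24.7 and 23.9 in HFD, 19.7, 21.0 and 17.1 in CD_DSS, against 21.9, 20.1 and 21.3 in HFD_DSS. All 6 DSS libraries lay below all 6 untreated ones. It fell 1.16-fold (log2 −0.21, SE 0.06, limma adjusted p = 0.0280). The adjusted p was 0.0613 without CD 2, 0.0564 without CD 3, 0.0662 without HFD 2, 0.0602 without CD_DSS 3, 0.0583 without HFD_DSS 3, 0.0504 without the 3 libraries that stood apart and 0.0805 on the TPM scale. Atg7, the activating enzyme for both conjugation systems, had 7.53, 7.99 and 7.94 FPKM in CD, 6.15, 7.84 and 6.87 in HFD, 5.58, 6.04 and 6.11 in CD_DSS, against 6.17, 6.00 and 6.28 in HFD_DSS. HFD 1, at 6.15 FPKM, was inside the DSS range, and the other untreated libraries were above it. It fell 1.19-fold (log2 −0.25, SE 0.06, limma adjusted p = 0.0135). The ATG8 protease Atg4a (log2 −0.19, limma adjusted p = 0.0996) and its paralog Atg4c (log2 0.18, adjusted p = 0.149) had opposite signs, and Atg3, Atg4b, Atg4d, Atg10, Atg12 and Atg16l1 ranged from −0.14 (Atg10) to 0.09 (Atg16l1).

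Among the 5 ATG8 genes, 1 rose. Map1lc3b, which encodes LC3B, had 14.8, 16.3 and 15.7 FPKM in CD, 14.6, 14.2 and 14.7 in HFD, 17.1, 21.5 and 21.7 in CD_DSS, against 20.5, 17.5 and 21.1 in HFD_DSS. The DSS libraries were all above the untreated ones, with CD_DSS 1 and HFD_DSS 2 the lowest of the 6. It rose 1.30-fold (log2 0.38, SE 0.07, limma adjusted p = 0.00640). Its paralog Map1lc3a, which encodes LC3A, had 22.9 to 32.4 FPKM, with a log2 difference of −0.17 (SE 0.07, limma adjusted p = 0.0836). The FPKM of Map1lc3a was the higher of the pair in every library, but over 1181 exon bases, against 7517 for Map1lc3b. In recovered fragments the order was the reverse, 613 to 1000 per library for Map1lc3a and 2580 to 3991 for Map1lc3b. Which of the pair is more abundant is therefore not settled by these values. The ratio of Map1lc3b to Map1lc3a within a library, also chosen after their values were seen, was 0.485 to 0.604 without DSS and 0.624 to 0.874 with DSS. Gabarapl1 had 152, 141 and 117 FPKM in CD, 95.7, 134 and 126 in HFD, 151, 117 and 116 in CD_DSS, against 92.1, 107 and 97.0 in HFD_DSS. HFD_DSS lay below both CD and CD_DSS and overlapped HFD, and the other groups overlapped each other (DSS averaged, log2 −0.17, SE 0.11, limma adjusted p = 0.288). Without the 3 libraries that stood apart, Gabarapl1 was called lower (log2 −0.34, SE 0.08, adjusted p = 0.0167), and likewise with library weights (log2 −0.29, SE 0.08, adjusted p = 0.0133). Gabarap and Gabarapl2 had log2 differences of −0.01 and −0.12.

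**Figure D3:**
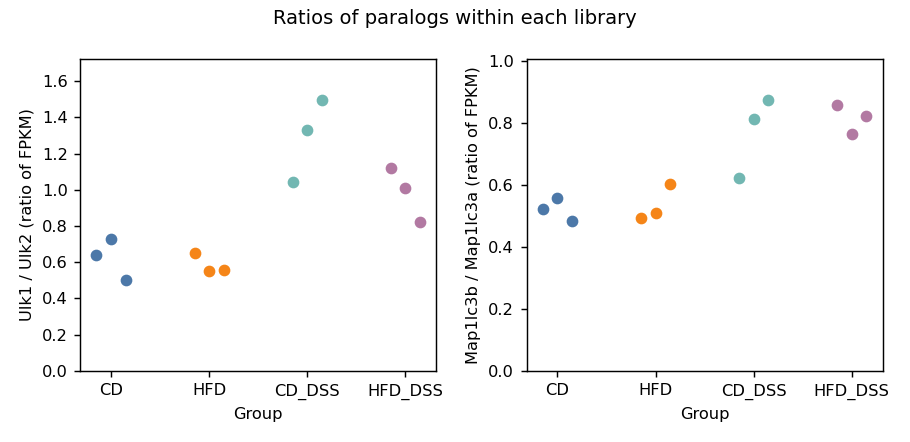
Ratio of Ulk1 to Ulk2 (left) and of Map1lc3b to Map1lc3a (right) in each library, computed from FPKM, with 1 point per library and 3 libraries per group. The untreated libraries reach 0.726 and 0.604, and all DSS libraries lie above these values. Ratios of Gabarapl1 to Gabarap and of Bnip3 to Bnip3l, not drawn, overlapped.

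Stx17, the membrane protein that drives fusion with the lysosome, ranged from 3.50 to 4.97 FPKM over the 12 libraries (DSS averaged, log2 −0.07, SE 0.06, limma adjusted p = 0.464).

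The soluble cargo receptors showed both directions, with 1 of 7 higher and 1 lower. Sqstm1, the receptor for ubiquitinated cargo, had 135, 138 and 118 FPKM in CD, 121, 119 and 126 in HFD, 151, 144 and 153 in CD_DSS, against 161, 142 and 145 in HFD_DSS. Every DSS library was above every untreated one, by the narrowest margin between HFD_DSS 2 and CD 2. It rose 1.18-fold (log2 0.24, SE 0.06, limma adjusted p = 0.0250). Without CD 3 the adjusted p was 0.0571, without HFD 2 it was 0.0617, without CD_DSS 3 it was 0.0585 and without HFD_DSS 1 it was 0.0617. Optn (optineurin), which takes part in clearing mitochondria and bacteria, had 19.3, 17.0 and 19.8 FPKM in CD, 18.3, 21.7 and 20.9 in HFD, 15.4, 13.7 and 12.6 in CD_DSS, against 16.5, 19.1 and 18.6 in HFD_DSS. The 3 CD_DSS libraries were the lowest of the 12, while HFD_DSS overlapped both untreated groups. It fell 1.22-fold on average (log2 −0.28, SE 0.07, limma adjusted p = 0.0205). This call was lost without HFD 2 (adjusted p = 0.0554), without CD_DSS 3 (0.0527), without HFD_DSS 1 (0.0525) and on the TPM scale (0.101). The ferritin receptor Ncoa4, with Nbr1, Calcoco1, Tax1bp1 and Tollip, ranged in log2 difference from −0.18 (Calcoco1) to 0.11 (Nbr1), none called with all libraries. Calcoco1 was called lower without the 3 libraries that stood apart (log2 −0.40, SE 0.10, limma adjusted p = 0.0151) and with library weights (log2 −0.37, SE 0.10, adjusted p = 0.0166).

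Of the 5 receptors on organelles, 1 rose. Bnip3, a mitochondrial receptor known as a hypoxia target, had 30.8, 28.0 and 32.2 FPKM in CD, 24.6, 31.8 and 33.3 in HFD, 35.9, 51.0 and 46.3 in CD_DSS, against 33.3, 34.2 and 30.1 in HFD_DSS. CD_DSS 2 and 3 stood far above the rest and HFD_DSS lay within or just above the untreated range. The averaged rise was 1.25-fold (log2 0.33, SE 0.10, limma adjusted p = 0.0422). The adjusted p was 0.0589 to 0.0958 when any one library other than HFD 3 and CD_DSS 1 was left out, and 0.0924 with no filter on low values. Its paralog Bnip3l (log2 0.06) and Fundc1 (log2 0.22, adjusted p = 0.0958), both mitochondrial receptors, and the endoplasmic reticulum receptors Retreg1 (log2 0.06) and Tex264 (log2 −0.13) were not called.

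**Figure D4:**
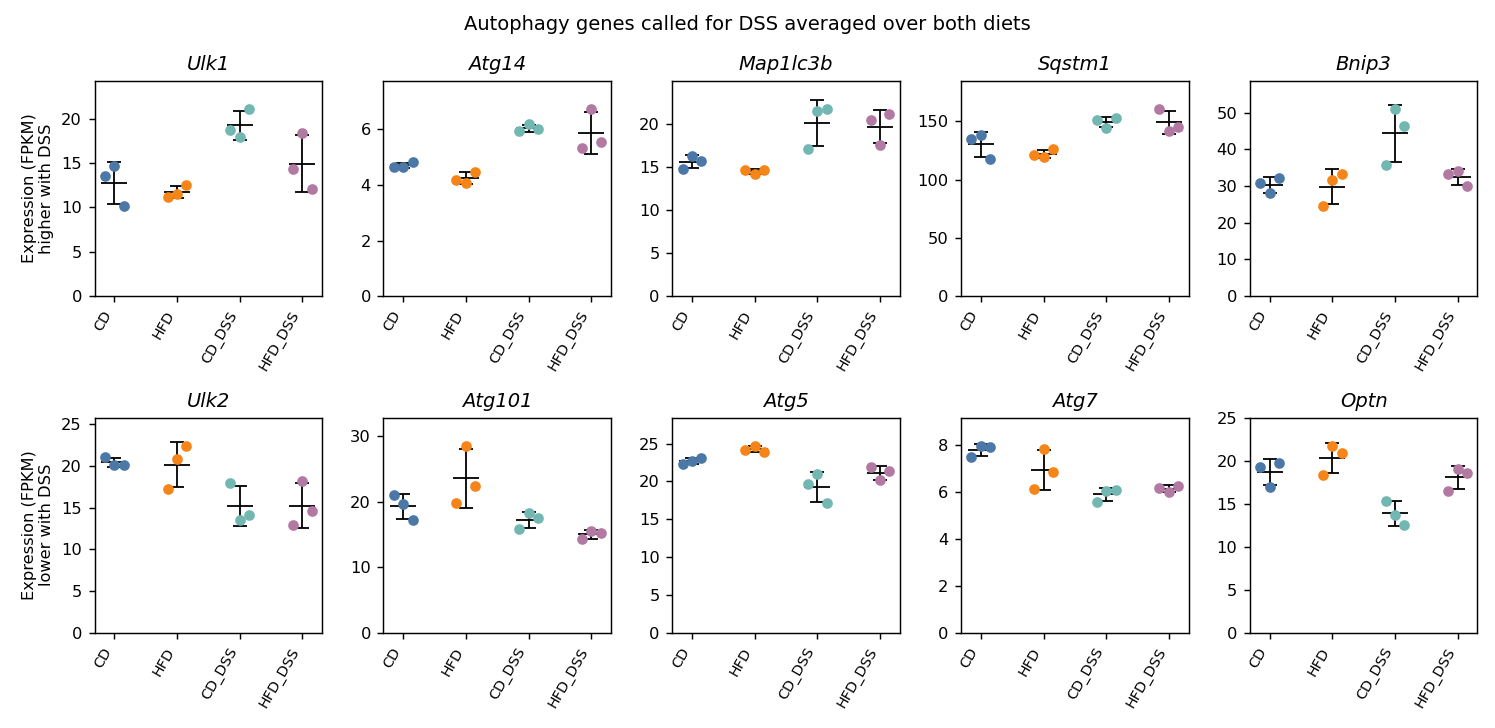
Expression (FPKM) of the 10 genes called for DSS averaged over both diets, 5 higher (upper row) and 5 lower (lower row), with 1 point per library and bars for the mean and SD of 3 libraries. Atg14, Map1lc3b and Sqstm1 separate all DSS from all untreated libraries upward and Atg5 downward, while Bnip3 and Optn differ mainly in CD_DSS.

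In 4 of the 45 genes, all of them called, the 6 DSS libraries did not overlap the 6 untreated ones. These were 3 of 45 upward (Atg14, Map1lc3b and Sqstm1) and 1 of 45 downward (Atg5). Such a separation was seen in 296 of all 10806 tested genes upward (2.74%) and 416 downward (3.85%). In the mm10 build with GENCODE annotation, Atg14 lies at chr14:47540893-47570649, Map1lc3b at chr8:121590361-121598760, Sqstm1 at chr11:50199366-50210827 and Atg5 at chr10:44268358-44364291. Of the exon bases of Sqstm1, 17.3% are shared with Mrnip on the opposite strand (0.905 to 2.42 FPKM), and 22.3% of those of Bnip3 with Gm45507, which was listed at 0. The labels do not state whether counting used the strand.

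Promoter sequence was looked at because genes of one pathway moved in both directions. RefSeq windows of 250 bases before the annotated start (GRCm38.p6) were matched for 38 of the 45 genes, and all 10 called genes were among them. The E-box core CACGTG, the palindrome that TFEB and other basic helix-loop-helix factors bind, was searched on both strands, which hold it at the same place. It was present in 6.02% of 32851 windows of this length over all genes, and in 5 of the 50 windows of the 38 genes (10.0%). Counted by gene, 6.86% of all 27025 genes with a window held it, and 5 of the 38 (13.2%), Atg3, Atg5, Atg7, Bnip3 and Retreg1. These were 3 of the 10 called and 2 of the 28 other genes. The share among all called genes was not computed, so this split shows no link between the E-box and the calls. Below are the called genes that hold it, which include 2 that fell and 1 that rose, and Map1lc3b and Sqstm1, which rose and do not, each 5′ to 3′ on the gene's strand with the E-box core in capitals. Bases that GENCODE places inside the gene were left off the last 3.
Atg5 (chr10:44268089-44268338, forward strand): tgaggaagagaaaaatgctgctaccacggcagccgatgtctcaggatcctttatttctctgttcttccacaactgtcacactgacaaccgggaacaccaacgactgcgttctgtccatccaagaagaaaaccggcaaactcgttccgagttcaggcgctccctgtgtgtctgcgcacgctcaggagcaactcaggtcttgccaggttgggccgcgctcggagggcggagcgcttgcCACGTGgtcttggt
Atg7 (chr6:114670846-114671095, forward strand): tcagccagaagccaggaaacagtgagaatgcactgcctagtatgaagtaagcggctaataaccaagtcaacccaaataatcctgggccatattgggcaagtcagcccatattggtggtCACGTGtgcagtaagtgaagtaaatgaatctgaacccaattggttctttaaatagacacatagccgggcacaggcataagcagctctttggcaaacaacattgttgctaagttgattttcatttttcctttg
Bnip3 (chr7:138909520-138909756, reverse strand): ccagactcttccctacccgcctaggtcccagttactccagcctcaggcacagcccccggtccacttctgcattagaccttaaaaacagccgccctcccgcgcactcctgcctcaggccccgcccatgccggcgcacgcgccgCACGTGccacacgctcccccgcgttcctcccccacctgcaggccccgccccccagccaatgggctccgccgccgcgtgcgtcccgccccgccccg
Map1lc3b (chr8:121590188-121590360, forward strand): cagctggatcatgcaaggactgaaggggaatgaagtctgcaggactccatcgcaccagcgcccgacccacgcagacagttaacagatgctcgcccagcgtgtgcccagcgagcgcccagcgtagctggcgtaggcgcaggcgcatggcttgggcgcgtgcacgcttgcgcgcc
Sqstm1 (chr11:50210828-50211070, reverse strand): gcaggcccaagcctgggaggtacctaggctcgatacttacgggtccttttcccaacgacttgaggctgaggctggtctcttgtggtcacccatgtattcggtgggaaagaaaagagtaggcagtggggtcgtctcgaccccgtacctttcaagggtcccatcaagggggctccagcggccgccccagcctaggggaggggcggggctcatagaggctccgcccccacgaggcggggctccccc
The core starts 14 bases before the RefSeq start in Atg5, 132 in Atg7 and 108 in Bnip3. The window of Atg7 lies inside the GENCODE gene, which begins upstream at 114643097. A match is a string in a window and not a measured binding site, and its absence says nothing of a factor acting elsewhere.

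On the CD diet alone, DSS lowered 2 of the 45 genes and raised none past the threshold (4.8% of all tested genes were called, 2.01% higher and 2.79% lower, or 217 and 302 genes, which became 239 and 145 on the TPM scale). Atg7 went from 7.82 ± 0.254 FPKM (SD, n = 3) to 5.91 ± 0.287 FPKM (SD, n = 3), a fall of 1.28-fold (log2 −0.35, SE 0.08, limma adjusted p = 0.0382). Optn went from 18.7 ± 1.49 FPKM (SD, n = 3) to 13.9 ± 1.41 FPKM (SD, n = 3), a fall of 1.32-fold (log2 −0.40, SE 0.10, limma adjusted p = 0.0483). In the same comparison, Ulk1 (log2 0.57, adjusted p = 0.0582), Bnip3 (0.52, 0.0601), Ulk2 (−0.42, 0.109) and Atg4c (0.41, 0.0719) had the larger differences that did not pass. Of the genes given whatever the test, Map1lc3b differed by 0.34 (limma adjusted p = 0.0854), Atg5 by −0.23 (0.126), Sqstm1 by 0.20 (0.214), Becn1 by 0.15 (0.196) and Gabarapl1 by −0.10 (0.758). The 3 CD_DSS libraries lay above the 3 CD libraries in 12 of the 45 members and below them in 6 of the 45. Over all 10806 genes this held for 1364 (12.6%) and 1556 (14.4%). Leaving out any one library other than CD_DSS 1 ended both calls (adjusted p 0.0720 to 0.125 for Atg7 and 0.0876 to 0.188 for Optn). Without CD_DSS 1, 6 members were called, and without the 3 libraries that stood apart 8 were (Ulk1, Atg14, Atg4c, Map1lc3b and Bnip3 higher, Ulk2, Atg7 and Optn lower). Over all genes, 1285 of 10750 were called without CD_DSS 1 and 1941 of 10611 without the 3 libraries. The members were thus called about as often as any gene.

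On the high-fat diet, DSS changed 3 members (4.83% of all genes were called, 1.73% higher and 3.1% lower, or 187 and 335 genes, which became 245 and 122 on the TPM scale). Atg101 fell from 23.6 ± 4.50 FPKM (SD, n = 3) to 15.004 ± 0.630 FPKM (SD, n = 3), a fall of 1.52-fold (log2 −0.60, SE 0.12, limma adjusted p = 0.0271). Atg14 rose from 4.24 ± 0.210 FPKM (SD, n = 3) to 5.87 ± 0.751 FPKM (SD, n = 3), a rise of 1.31-fold (log2 0.39, SE 0.08, limma adjusted p = 0.0278). Map1lc3b rose from 14.5 ± 0.291 FPKM (SD, n = 3) to 19.7 ± 1.93 FPKM (SD, n = 3), a rise of 1.33-fold (log2 0.41, SE 0.10, limma adjusted p = 0.0458). Ulk2 (log2 −0.39, adjusted p = 0.128), Ulk1 (0.31, 0.252) and Calcoco1 (−0.31, 0.340) had the next differences by size, and Sqstm1 differed by 0.28 (0.0944), Gabarapl1 by −0.25 (0.354), Atg5 by −0.19 (0.184), Atg7 by −0.15 (0.298), Bnip3 by 0.13 (0.627) and Becn1 by 0.06 (0.662). The HFD_DSS libraries lay above the HFD libraries in 6 of the 45 members and below in 3 of the 45. Over all 10806 genes this held for 1344 (12.4%) and 1587 (14.7%). The calls were lost when HFD 2, HFD 3, HFD_DSS 1 or HFD_DSS 3 was left out (adjusted p 0.0669 to 0.109 for Atg101, 0.0610 to 0.130 for Atg14 and 0.0994 to 0.168 for Map1lc3b), and that of Map1lc3b also without HFD 1 (0.0613). On the TPM scale only Map1lc3b was called on either diet (adjusted p = 0.0458 on CD and 0.0240 on HFD). Without the 3 libraries that stood apart, 6 members were called on the high-fat diet (Atg14 and Map1lc3b higher, Ulk2, Atg101, Gabarapl1 and Calcoco1 lower). Over all genes 2028 of 10611 were then called, so the members were not called more often than genes at large. The 2 diets' DSS comparisons share no library.

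The high-fat diet moved no member past the threshold, with or without DSS. Without DSS, 0 of 45 were called at a limma adjusted p under 0.05 (0.00925% of all genes, 1 gene), 3 had an unadjusted p under 0.05, voom on recovered fragments also called 0, and the median log2 difference was −0.03. The 3 HFD libraries lay above the 3 CD libraries in Atg4d, Atg5 and Atg12 and below them in Atg14, Atg2b, Atg3, Map1lc3b and Ncoa4. These were 3 and 5 of the 45 members, against 711 (6.58%) and 707 (6.54%) of all 10806 genes. Retreg1 had the widest difference in size and spread, with 22.7, 28.3 and 13.4 FPKM in CD, 9.90, 16.1 and 14.7 in HFD, 20.9, 19.5 and 21.4 in CD_DSS, against 17.8, 15.2 and 11.2 in HFD_DSS. CD 3 lay inside the HFD range (HFD against CD, log2 −0.59, SE 0.25, limma adjusted p = 0.706). Next were Atg101 (log2 0.26, adjusted p = 0.750), Atg12 (0.22, 0.757), Gabarapl1 (−0.21, 0.892) and Ncoa4 (−0.20, 0.670), and Sqstm1 (−0.09), Map1lc3b (−0.10), Becn1 (0.08), Ulk1 (−0.10), Atg5 (0.09), Atg7 (−0.15) and Bnip3 (−0.03) differed by less.

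Under DSS the diet comparison again called 0 of 45 members (0.102% of all genes, 11 genes, 0.037% higher and 0.0648% lower), with 9 at an unadjusted p under 0.05 and 0 by voom. The median log2 difference was −0.03. In 10 of the 45 members every HFD_DSS library lay below every CD_DSS library (Atg101, Uvrag, Atg2b, Atg4c, Atg4d, Gabarapl1, Ncoa4, Bnip3, Bnip3l and Retreg1). In 4 of the 45 every one lay above (Wipi1, Atg4a, Atg16l1 and Optn). Over all 10806 genes this held for 969 (8.97%) below and 814 (7.53%) above. Retreg1 (log2 −0.48, limma adjusted p = 0.528), Bnip3 (−0.42, 0.303), Atg4c (−0.41, 0.240), Gabarapl1 (−0.36, 0.425) and Ulk1 (−0.36, 0.425) had the largest differences, and Optn (0.36, 0.231) the smallest adjusted p. Atg4c, an ATG8 protease, had 5.06, 5.35 and 4.97 FPKM in CD, 4.62, 5.39 and 6.27 in HFD, 6.29, 7.47 and 7.83 in CD_DSS, against 5.96, 5.24 and 4.40 in HFD_DSS. CD_DSS was the highest group and the other 3 overlapped. Sqstm1 (−0.01), Map1lc3b (−0.02), Becn1 (−0.02), Atg7 (0.05) and Atg5 (0.13) differed by less. Down-weighting variable libraries called Atg4c (log2 −0.52, adjusted p = 0.0407) and Bnip3 (−0.58, 0.0368), and leaving out the 3 libraries that stood apart called Bnip3 (−0.60, 0.0476). Over all genes these settings called 147 of 10806 and 81 of 10611.

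Averaged over both DSS states, the diet effect was called in 0 of 45 members (0.342% of all genes, 37 genes, 0.0925% higher and 0.25% lower), with 8 at an unadjusted p under 0.05 and 0 by voom. For 43 members the 95% confidence interval of the log2 difference lay within ±0.5. Those outside it were Retreg1 (log2 −0.53, from −0.92 to −0.14, limma adjusted p = 0.240) and Gabarapl1 (−0.29, from −0.53 to −0.05, adjusted p = 0.296). Atg4a (0.25, 0.196), Optn (0.24, 0.195) and Ulk1 (−0.23, 0.407) followed in size. Sqstm1 (−0.05), Map1lc3b (−0.06), Becn1 (0.03), Atg5 (0.11), Atg7 (−0.05) and Bnip3 (−0.23) were not called either. Ncoa4 had 9.48, 9.93 and 11.1 FPKM in CD, 8.53, 8.61 and 9.00 in HFD, 9.53, 9.62 and 10.6 in CD_DSS, against 8.54, 9.23 and 9.20 in HFD_DSS. It was the single member in which all 6 high-fat libraries lay below all 6 CD libraries (log2 −0.16, SE 0.05, limma adjusted p = 0.241), a separation seen in 0.527% of all genes. With library weights, Optn alone was called (log2 0.32, adjusted p = 0.0229), against 263 of all 10806 genes.

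The DSS effect did not differ between the diets past the threshold in any member (0 of 45 by limma, against 0.00925% of all genes, 1 gene; 4 members at an unadjusted p under 0.05; 0 by voom). Atg4d, an ATG8 protease at a low FPKM, came nearest. Its values were 3.11, 3.15 and 2.86 FPKM in CD, 3.68, 3.58 and 3.53 in HFD, 3.30, 3.50 and 3.31 in CD_DSS, against 2.96, 2.96 and 2.93 in HFD_DSS. The high-fat libraries were all above the CD libraries without DSS and all below them with DSS, a difference of −0.33 on the log2 scale (SE 0.09, unadjusted p = 0.00334, limma adjusted p = 0.707), and 19.3% of its exon bases are shared with Kri1 on the opposite strand (0.438 to 1.03 FPKM). Larger differences with wider errors were those of Atg4c (−0.47, SE 0.17), Atg101 (−0.45, SE 0.18), Bnip3 (−0.39, SE 0.20) and Bnip3l (−0.27, SE 0.12), each at an adjusted p of 1. For the other genes given throughout, the difference was −0.26 in Ulk1, 0.20 in Atg7, −0.15 in Gabarapl1, −0.10 in Becn1, 0.08 in Map1lc3b, 0.08 in Sqstm1 and 0.03 in Atg5.

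Around the core machinery, genes that sense nutrients and energy gave 4 calls for DSS averaged over both diets among 22 tested of 25, 1 higher and 3 lower. That is 18.2% of those tested, against 20% of all genes, so the list was not called more often than genes at large. Ddit4, which encodes the mTORC1 inhibitor REDD1, had 8.62, 19.0 and 20.4 FPKM in CD, 25.5, 11.4 and 6.76 in HFD, 3.59, 6.27 and 7.74 in CD_DSS, against 5.36, 6.54 and 7.27 in HFD_DSS. The untreated libraries ranged widely, and all but HFD 3 lay above all DSS libraries. It fell 2.12-fold (log2 −1.08, SE 0.30, limma adjusted p = 0.0276). Mtor, the kinase that holds autophagy back when nutrients are plentiful, rose 1.26-fold (log2 0.33, SE 0.10, adjusted p = 0.0390), Prkaa2, a catalytic subunit of the energy sensor AMPK, fell 1.30-fold (log2 −0.38, SE 0.10, adjusted p = 0.0226), and Lamtor1, an anchor of mTORC1 on lysosomes, fell 1.18-fold (log2 −0.24, SE 0.05, adjusted p = 0.0106). Lamtor1 was called whichever library was left out. The call of Ddit4 was lost without CD 2, CD 3, HFD 2 or HFD_DSS 1 (adjusted p 0.0531 to 0.0648) and without the 3 libraries that stood apart (0.0611), and that of Mtor without CD 2, CD 3, HFD 2, CD_DSS 1, CD_DSS 3, HFD_DSS 1 or HFD_DSS 2 (0.0600 to 0.0874) and without the 3 libraries (0.115). The call of Prkaa2 was lost without CD 3, HFD 2, HFD 3, CD_DSS 2, CD_DSS 3, HFD_DSS 1 or HFD_DSS 3 (0.0508 to 0.0577). On the TPM scale Mtor (adjusted p = 0.0728) and Prkaa2 (0.0744) were not called. The list's median log2 difference was −0.08, against −0.01 for all genes.

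The other lists gave 1 call each, all lower with DSS, or 6.67 to 7.69% of the genes tested in each, against 20% of all genes. Among 14 transcription factors of autophagy genes it was Foxo3, a forkhead factor, which had 10.0, 10.2 and 8.57 FPKM in CD, 6.11, 8.90 and 8.54 in HFD, 6.91, 5.00 and 5.09 in CD_DSS, against 5.24, 8.36 and 6.08 in HFD_DSS. Most DSS libraries were low, but HFD_DSS 2 and HFD 1 crossed the groups (log2 −0.46, SE 0.12, limma adjusted p = 0.0249). Tfeb, Tfe3 and the other 11 factors of this list were not called. Among 15 genes of autophagosome-lysosome fusion it was Rilp, an effector of the small GTPase RAB7, with 12.6, 10.8 and 10.5 FPKM in CD, 11.3, 13.1 and 12.5 in HFD, 11.1, 8.43 and 8.71 in CD_DSS, against 7.60, 9.02 and 7.53 in HFD_DSS. All HFD_DSS libraries lay below all untreated libraries, and CD_DSS 1 overlapped them (log2 −0.40, SE 0.08, limma adjusted p = 0.00741). Among the 13 tested of 15 other core and accessory factors it was Trp53inp1, a p53 target that binds ATG8 proteins (log2 −0.62, SE 0.17, adjusted p = 0.0296), and among the 13 tested of 16 other selective autophagy factors it was Phb2, an inner mitochondrial membrane receptor (log2 −0.21, SE 0.06, adjusted p = 0.0279). The call of Rilp held whichever library was left out. Calls were lost for Foxo3 without CD 2, HFD 2, HFD 3, CD_DSS 2, CD_DSS 3, HFD_DSS 1 or HFD_DSS 3 (adjusted p 0.0555 to 0.0642), for Trp53inp1 without these or CD 3 (0.0517 to 0.0729) and for Phb2 without CD 2, CD 3, HFD 2, CD_DSS 2, CD_DSS 3, HFD_DSS 1 or HFD_DSS 3 (0.0539 to 0.0702). All 3 were also lost on the TPM scale (0.0750, 0.0609 and 0.0953).

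On single diets, DSS lowered Lamtor1 (log2 −0.34, SE 0.07, limma adjusted p = 0.0289) and Foxo3 (log2 −0.68, SE 0.17, adjusted p = 0.0491) on CD, and Rilp on the high-fat diet (log2 −0.56, SE 0.12, adjusted p = 0.0271). The call of Lamtor1 was lost without CD 2, CD 3, CD_DSS 2 or CD_DSS 3 (adjusted p 0.0893 to 0.116), that of Foxo3 without any one library of the comparison other than CD_DSS 1 (0.0948 to 0.181), and that of Rilp without HFD 2, HFD 3, HFD_DSS 1 or HFD_DSS 3 (0.0739 to 0.125). No gene of the 5 lists was called for the diet, with or without DSS, or for the difference between the DSS effects.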

How the data were processed

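Liver RNA was sequenced in 12 libraries, and the authors deposited FPKM values for each gene, 1 column per library with no pooling. RNA came from a Qiagen RNeasy extraction and libraries from a SMARTer mRNA kit, per the labels' protocols. The submitters' processing notes name mm10 as genome build, and the sources used here name no aligner or counter. The table's 4 unnamed, empty columns were not used. Fragment numbers recovered from the FPKM steps and GENCODE exon lengths gave the depth (97.0 to 97.3% of values under 500 fragments lay within 0.02 of a whole number).

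Values were analysed as log2(FPKM + 1), which understates changes of low genes, and folds are of FPKM + 1. All 12 libraries entered one limma model of 4 group means (limma 3.58.1, R 4.3.3, two-sided moderated tests with a trend in the prior variance), on 10806 genes, with Benjamini-Hochberg adjustment over all of them and a threshold of 0.05. The 7 comparisons were the diet and the DSS effect at each level of the other, both averaged effects, and the difference between the DSS effects. The scripts were tested on simulated data before use. Alternatives were a pseudocount of 0.1, other filters and scalings, library weights, a replicate block, fits of 2 groups and leaving out each library. Chosen after seeing the data were voom on recovered fragments and leaving out 3 libraries. The members and lists were chosen with earlier results of these data known. Named are all called members, the 5 with the largest differences where fewer than 5 were called, 8 members given throughout, and called genes of 5 other lists. Others are given by range, or were named after their values were seen.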

Additional observations from a re-analysis of the deposited data

How the results depend on the processing

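For DSS averaged over both diets, the 10 member calls became 11 with a pseudocount of 0.1, 9 without a filter, 10 of 32 tested at a mean of at least 5 FPKM, 7 on the TPM scale, 12 with median-of-ratios scaling, 17 with library weights, 11 by voom, 11 without the 3 libraries that stood apart, and 6 to 13 when each library was left out. Ulk1, Atg14, Atg101, Atg7 and Map1lc3b were called under every one of these settings and with the replicate block. On the CD diet, the 2 calls became 4 at a mean of at least 5 FPKM, 1 on the TPM scale, 1 with median-of-ratios scaling, 10 with library weights, 0 without a filter, 0 in a fit of the 2 groups alone, 8 without the 3 libraries, and 0 to 6 with single libraries left out. On the high-fat diet, the 3 calls became 1 on the TPM scale, 0 without a filter, 0 in the fit of the 2 groups, 9 with library weights, 6 without the 3 libraries, and 0 to 4 with single libraries left out. Diet under DSS went from 0 to 2 calls with library weights and to 1 without the 3 libraries, and the averaged diet effect from 0 to 1 with library weights. The diet without DSS and the difference between DSS effects had 0 calls under every alternative run. Calls over all genes moved too. For DSS averaged they went from 2157 to 4259 with library weights, 3359 without the 3 libraries and 1306 to 2668 with single libraries left out. On the CD diet they went from 519 to 2592, 1941 and 63 to 1285 under these settings. On the high-fat diet they went from 522 to 2820, 2028 and 9 to 880. A larger member count is therefore not by itself a result about the members. The cause of these changes was not tested.

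The 18 correlations of deviations between same-numbered libraries ran from −0.356 to 0.258, with 5 above 0.1. For the 36 pairs with different numbers they ran from −0.360 to 0.461, with 11 above 0.1. Deviations from means of only 3 libraries cannot decide whether the numbers pair the libraries. With the number as a replicate block, members called were 10 for DSS averaged, 0 on CD, 2 on the high-fat diet and 0 in the other comparisons.

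Log2 differences of 6 genes given throughout changed sign, all uncalled and near 0. For the diet without DSS, Bnip3 (−0.03) became 0.11 with library weights and 0.10 without the 3 libraries, and with single libraries left out it ran from −0.11 to 0.099 and Ulk1 from −0.24 to 0.0010. For the diet under DSS, Sqstm1 became 0.0020 with library weights and 0.039 without the 3 libraries, and with single libraries left out it ran from −0.059 to 0.030, Map1lc3b from −0.13 to 0.054 and Becn1 from −0.043 to 0.0080. For DSS on the high-fat diet, Bnip3 became −0.037 without the 3 libraries and ran from −0.0012 to 0.21. For the difference between DSS effects, Atg5 ran from −0.044 to 0.095 and Map1lc3b from −0.033 to 0.15.

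Depth limits the low genes: Atg10, the member with the lowest FPKM, had 48 to 104 recovered fragments per library, against 9717 to 15144 for Sqstm1. The exon overlaps of Becn1 with Cntd1 (43.9%), Atg9a with Gm29253 (31.8%) and Gabarapl1 with 1700101I11Rik (28.3%) involve partners at or near 0 FPKM. Atg4a and Bnip3l each have a pseudogene named after them in the annotation, so their values are less certain. Copies under other names were not searched for in any member.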
